A study of Arabidopsis thaliana with 4 samples.

Results

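The genes described here are 39 Arabidopsis thaliana genes that make, export or regulate the 2 lipid layers of the plant cuticle, cutin and wax. They are members of a list given by locus identifier, and all 39 of them were found among the 33602 genes of the count files. The members fall into 11 enzymes that build cutin acyl chains, 6 proteins of cutin assembly and cuticle export, 7 proteins of wax chain elongation, 5 enzymes of the wax alkane and alcohol branches, 2 post-transcriptional regulators of wax and 8 transcription factors.

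The study sorted abscission zone cells of ebp1 mutant flowers in the Col-0 background and sequenced their polyadenylated RNA. Residuum cells (RECs) come from the receptacle side of the zone, where the floral organ was attached, and secession cells (SECs) from the side of the separated floral organ. Both kinds of cell carry the ebp1 mutation and a nuclear GFP and GUS reporter under the QRT2 promoter, were taken as protoplasts by fluorescence, and are represented by 2 libraries each. The sort therefore holds cells in which that promoter was active, and the comparison of RECs with SECs holds no wild-type library.

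The cuticle covers the outer wall of epidermal cells. Cutin is a polyester of oxidised fatty acids and glycerol. Fatty acids are activated by LACS enzymes, hydroxylated by cytochrome P450 enzymes of the CYP86A and CYP77A families and joined to glycerol by GPAT acyltransferases, and the products leave the cell through ABCG transporters. Waxes are made from very long chain fatty acids, which an elongation complex builds at the endoplasmic reticulum and which are then turned into alkanes, secondary alcohols, primary alcohols and wax esters. When floral organs are shed, the residuum cells are left at the surface of the receptacle, where a cuticle forms over the scar.

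Gene counts per library were 12191718 and 14338470 in RECs and 13737549 and 16102115 in SECs, and levels are given as CPM, counts relative to the TMM-scaled size of their library. A count of 0 allows up to 0.236 and 0.200 CPM in RECs and up to 0.232 and 0.193 CPM in SECs. The labels give no locus for ebp1. The gene to which the reference gives EBP1 as a synonym, AT3G51800, had 91.4 and 92.8 CPM in REC libraries and 83.0 and 62.5 CPM in SEC libraries, so the genotype was not checked by these counts. QRT2 was read at 493 and 568 CPM in RECs and at 459 and 694 CPM in SECs. The SEC libraries differed from each other by transcript length. The ratio of SEC replicate 1 over replicate 2 had a log2 median of 0.49 over 6674 tested genes with transcripts under 1500 nt and of −0.95 over 2084 with transcripts of 3000 nt or more.

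Promoter sequences are shown for 3 members that passed the test below and held one of 4 searched motifs in the 250 bases before the annotated gene start. They were read from the RefSeq genome and annotation of TAIR10.1, which shares its nuclear chromosomes with the TAIR10 build named for the counts. The sequences lie at chr1:21385710-21385959 for MAH1, chr1:25715025-25715274 for CER6 and chr5:25081142-25081391 for MYB96, and each gene is on the minus strand. Each is printed 5′ to 3′ on the strand of its gene. Capitals mark TAACTA, a core of sites for MYB factors, in MAH1, and its reverse complement TAGTTA in CER6. In MYB96 they mark TAAATGCA, the L1 box bound by epidermal homeodomain factors.
MAH1: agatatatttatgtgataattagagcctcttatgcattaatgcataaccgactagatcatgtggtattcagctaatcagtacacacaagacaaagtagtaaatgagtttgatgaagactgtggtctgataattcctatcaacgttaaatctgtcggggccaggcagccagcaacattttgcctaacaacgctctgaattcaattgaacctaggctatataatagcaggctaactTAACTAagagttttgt
CER6: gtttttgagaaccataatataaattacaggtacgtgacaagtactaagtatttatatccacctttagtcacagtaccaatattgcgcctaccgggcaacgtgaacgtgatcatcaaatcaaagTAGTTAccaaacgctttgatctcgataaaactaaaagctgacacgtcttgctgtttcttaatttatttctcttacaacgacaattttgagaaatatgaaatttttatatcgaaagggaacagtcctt
MYB96: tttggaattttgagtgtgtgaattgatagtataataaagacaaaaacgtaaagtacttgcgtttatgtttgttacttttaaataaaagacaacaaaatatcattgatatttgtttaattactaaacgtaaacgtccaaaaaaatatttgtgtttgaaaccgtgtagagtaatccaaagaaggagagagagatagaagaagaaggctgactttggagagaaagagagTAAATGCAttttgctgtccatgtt

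The motif in MAH1 lay 16 to 11 bases before the gene start, that in CER6 127 to 122 bases and that in MYB96 24 to 17 bases before it. On either strand, TAACTA was in 13 of 39 member promoters (33.3%) and in 20.6% of 27443 promoters of protein-coding nuclear genes. The L1 box was in 3 member promoters (7.69%), those of ABCG11, MYB94 and MYB96, and in 1.57% of all promoters. CTAACCA, another core of MYB sites, was in 1 member promoter, that of HTH (2.56%, against 3.18% of all). The GCC box GCCGCC, bound by ERF factors, was in that of GPAT6 alone among the members (2.56%, against 1.87%). No motif searched contains another, and the promoters of CYP86A4 and CER4 held none of the 4. These matches are descriptions of letters in a window and were not tested.

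Among the 33 tested members the largest differences between RECs and SECs were in 2 cytochrome P450 genes, MAH1 of wax synthesis and CYP86A4 of cutin synthesis, which stood 18.5 and 11.7 times higher in RECs. Of 12 wax enzymes 3 passed the test, and of 15 tested cutin members 1 passed. At a Benjamini-Hochberg adjusted p under 0.05 in the quasi-likelihood test of edgeR, 5 of the 33 members were higher in RECs and none was higher in SECs, while 28 did not pass. The 5 were MAH1, CYP86A4, CER4, CER6 and the transcription factor gene MYB96. Over all 18384 tested genes, 0.495% were called higher in RECs and 2.18% higher in SECs. At an unadjusted p under 0.05, 19 members were higher in RECs and 0 in SECs, against 9.46% and 14.1% of all tested genes. DESeq2 called 10 members higher in RECs and 0 in SECs, where it called 2.85% and 6.2% of the 23144 genes with a count. Without a filter on low counts edgeR called 8 members higher in RECs, against 1.21% of all genes, and 0 higher in SECs, against 3.61%. With a trend on transcript length removed from each library it called 11 members higher in RECs and 1 higher in SECs, against 4.87% and 8.96% of all genes.

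The fitted log2 fold change, RECs minus SECs, was above 0 for 29 of the 33 members and for 51.5% of all tested genes. Its median was 0.66 over the members and 0.02 over all tested genes. Both REC libraries were above both SEC libraries in 24 members, both SEC libraries were above both REC libraries in 3, and the groups overlapped in 6. Over all tested genes the first pattern held for 29.8% and the second for 28.2%. The count of members higher in RECs depended on the library left out. It was 2 with REC replicate 1 left out and 3 with REC replicate 2 left out, in fits that called 0.146% and 0.397% of all tested genes higher in RECs and take the spread from the SEC pair alone. It was 24 with SEC replicate 1 left out and 25 with SEC replicate 2 left out, in fits that called 18.7% and 29.4% of all tested genes higher in RECs and take the spread from the REC pair alone.

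**Figure D1:**
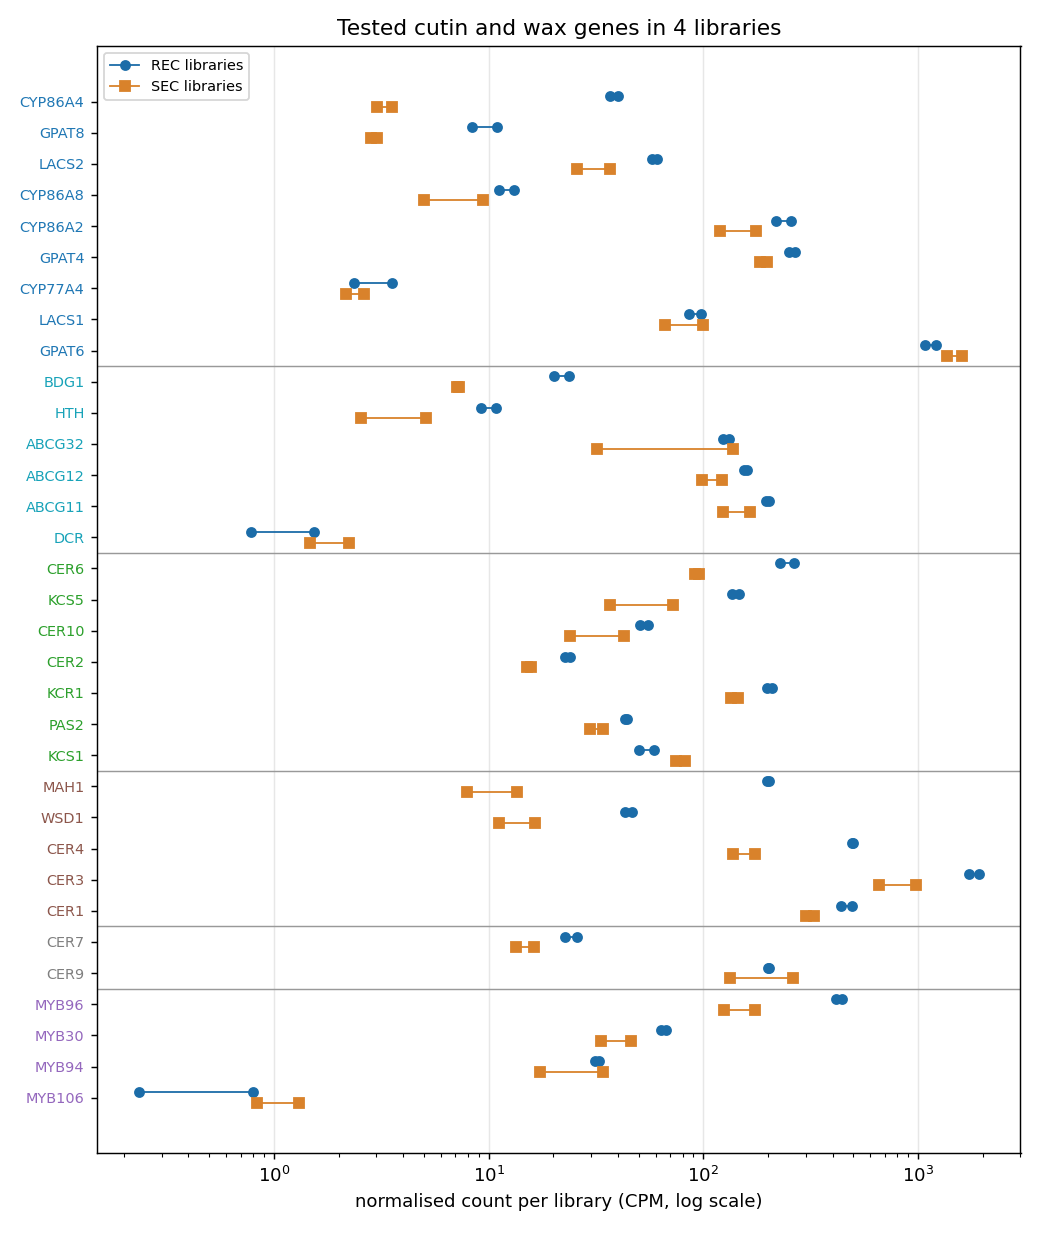
Normalised counts (CPM, log scale) of the 33 tested members in each library, with REC libraries as blue circles above SEC libraries as orange squares and a line joining the libraries of a group. Colours of the names and grey lines separate the roles. MAH1 stood near 200 CPM in RECs (198 and 202) and at 7.95 and 13.6 CPM in SECs, and GPAT6, KCS1 and MYB106 have both SEC libraries above both REC libraries.

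MAH1 (AT1G57750, CYP96A15 in the reference) encodes the midchain alkane hydroxylase, which turns wax alkanes into secondary alcohols and ketones. It had 2526 and 3021 counts in the REC libraries, against 103 and 212 in the SEC libraries, or 198 and 202 CPM in REC libraries and 7.95 and 13.6 CPM in SEC libraries. The groups were far apart, and the REC libraries were close to each other. The log2 fold change was 4.21 (SE 0.33, edgeR adjusted p = 0.0267), and it kept an adjusted p under 0.05 with each library left out in turn. Per kb of the longest annotated transcript MAH1 reached 105 CPM in RECs, within the top 6.29% of tested genes there, and 5.68 CPM in SECs, within the top 61.9%.

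CER4 (AT4G33790), the reductase that makes the primary alcohols of wax, had 494 and 495 CPM in REC libraries and 138 and 174 CPM in SEC libraries. Both REC libraries stood well above both SEC libraries, with a log2 fold change of 1.67 (SE 0.19, edgeR adjusted p = 0.0321). WSD1 (AT5G37300), which joins such alcohols to fatty acids as wax esters, had 42.9 and 46.3 CPM in REC libraries and 11.2 and 16.4 CPM in SEC libraries. Its difference was about as large as that of CER4, with a log2 fold change of 1.69 (SE 0.29), but it did not pass the test (edgeR adjusted p = 0.0534). Limma voom put WSD1 past the threshold (adjusted p = 0.0496), and the call for CER4 was lost without REC replicate 1 (edgeR adjusted p = 0.116).

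CER3 (AT5G57800) and CER1 (AT1G02205) encode the pair of proteins that form wax alkanes. CER3 was the most abundant member of its role per kb of transcript, at 704 CPM per kb in RECs and 317 CPM per kb in SECs, within the top 0.387% of tested genes in RECs and the top 1.65% in SECs. It had 1729.8 and 1914 CPM in REC libraries and 660 and 984 CPM in SEC libraries. The groups did not overlap, and the log2 fold change of 1.15 (SE 0.23) missed the threshold (edgeR adjusted p = 0.0656). CER1 had 436 and 491 CPM in REC libraries and 301 and 327 CPM in SEC libraries, a log2 fold change of 0.56 (SE 0.17, edgeR adjusted p = 0.128). In the alkane and alcohol branches, all 5 members had both REC libraries above both SEC libraries, and 2 of the 5 passed the test. Over all tested genes, 29.8% had that pattern and 0.495% were called higher in RECs. Summed over the 5 members, the level was 1194 and 1287 CPM per kb in RECs and 436 and 594 CPM per kb in SECs.

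In the elongation complex, CER6 (AT1G68530, KCS6 in the reference) encodes the ketoacyl-CoA synthase that sets chain length in wax. It had 228 and 264 CPM in REC libraries and 95.3 and 91.8 CPM in SEC libraries, with no overlap and a log2 fold change of 1.39 (SE 0.19, edgeR adjusted p = 0.0381). That call did not hold with either REC library left out (edgeR adjusted p = 0.231 without replicate 1 and 0.354 without replicate 2). KCS5 (AT1G25450), its close relative, had 136 and 147 CPM in REC libraries and 36.7 and 72.2 CPM in SEC libraries. The groups were apart here too, and the log2 fold change of 1.38 (SE 0.36) did not pass (edgeR adjusted p = 0.0989). KCS1 (AT1G01120), a synthase of broader expression, had 50.4 and 58.7 CPM in REC libraries and 82.4 and 74.5 CPM in SEC libraries, so that it lay on the other side of 0 (a log2 fold change of −0.53, SE 0.22, edgeR adjusted p = 0.224).

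KCR1, PAS2 and CER10 encode the reductase, dehydratase and enoyl reductase that complete each round of elongation and are shared by all chain lengths. KCR1 (AT1G67730) was the most abundant member of the elongation group per kb, at 112 CPM per kb in RECs and 76.8 CPM per kb in SECs. It had 199 and 208 CPM in REC libraries and 144 and 135 CPM in SEC libraries (a log2 fold change of 0.54, SE 0.18, edgeR adjusted p = 0.148). PAS2 (AT5G10480) and CER10 (AT3G55360) had log2 fold changes of 0.44 and 0.66, neither of which passed (edgeR adjusted p = 0.31 and 0.306). CER2 (AT4G24510), which works with CER6 on the longest chains, had 22.7 and 23.9 CPM in REC libraries and 15.7 and 15.0 CPM in SEC libraries (a log2 fold change of 0.60, edgeR adjusted p = 0.224). All of these had both REC libraries above both SEC libraries, as did 29.8% of all tested genes. In the elongation group 1 of 7 members passed, where 0.495% of all tested genes were called higher in RECs. CER2 shares 5.9% of its transcript with ATR1 on the other strand, a gene with 3898 and 5222 counts in REC libraries and 3558 and 7015 counts in SEC libraries, and the libraries do not mark strand.

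**Figure D2:**
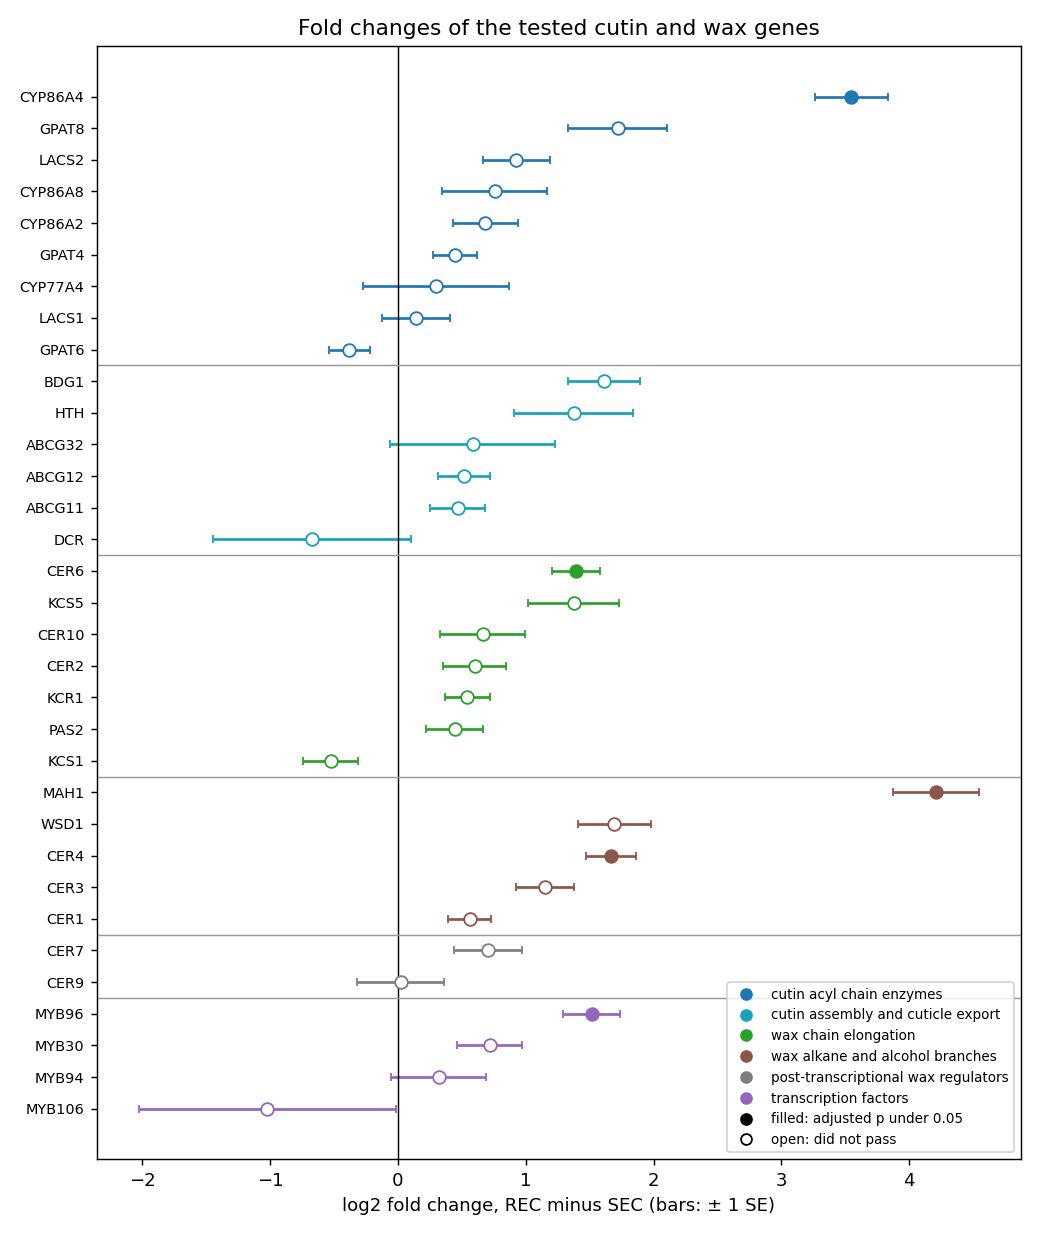
Log2 fold changes, RECs minus SECs, of the 33 tested members with bars of ± 1 SE, grouped by role. Filled points passed an edgeR adjusted p of 0.05 and open points did not. MAH1 and CYP86A4 lie at 4.21 and 3.55, and 29 of the 33 points lie above 0.

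Among the enzymes of cutin acyl chains, CYP86A4 (AT1G01600), a fatty acid omega-hydroxylase, was the one member of 9 tested to pass. Over all tested genes 0.495% were called higher in RECs. CYP86A4 had 512 and 550 counts in the REC libraries, against 46 and 47 in the SEC libraries. These are 40.2 and 36.7 CPM in REC libraries and 3.55 and 3.02 CPM in SEC libraries. The spread within each pair was small beside the gap between them (a log2 fold change of 3.55, SE 0.28, edgeR adjusted p = 0.0267). The call held with each library left out in turn. The related omega-hydroxylase gene CYP86A2 (AT4G00360) had 217 and 257 CPM in REC libraries and 120 and 176 CPM in SEC libraries (a log2 fold change of 0.68, SE 0.25, edgeR adjusted p = 0.188). CYP86A8 (AT2G45970, LACERATA), of the same family, had 13.2 and 11.2 CPM in REC libraries and 5.02 and 9.37 CPM in SEC libraries (a log2 fold change of 0.76, edgeR adjusted p = 0.339). CYP86A7 (AT1G63710) was too low to test, with 0 and 2 counts in the REC libraries, against 4 and 0 in the SEC libraries.

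Within the CYP86A family, CYP86A4 made up 14.4% and 11.6% of the summed CPM per kb of the family in RECs, and 2.66% and 1.54% in SECs. CYP86A2 made up 81.5% and 85.3% in RECs and 93.8% and 94.2% in SECs, and was the most abundant of the 4 on both sides. For the 3 KCS genes, KCS1 took 12.9% and 13.3% in RECs and 40.2% and 32.6% in SECs, and CER6 took 53.1% and 54.3% in RECs and 42.3% and 36.6% in SECs. These shares are given as a description and were not tested. Reads that align to more than one place are not in the counts, so copies with shared stretches may be under-read.

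**Figure D3:**
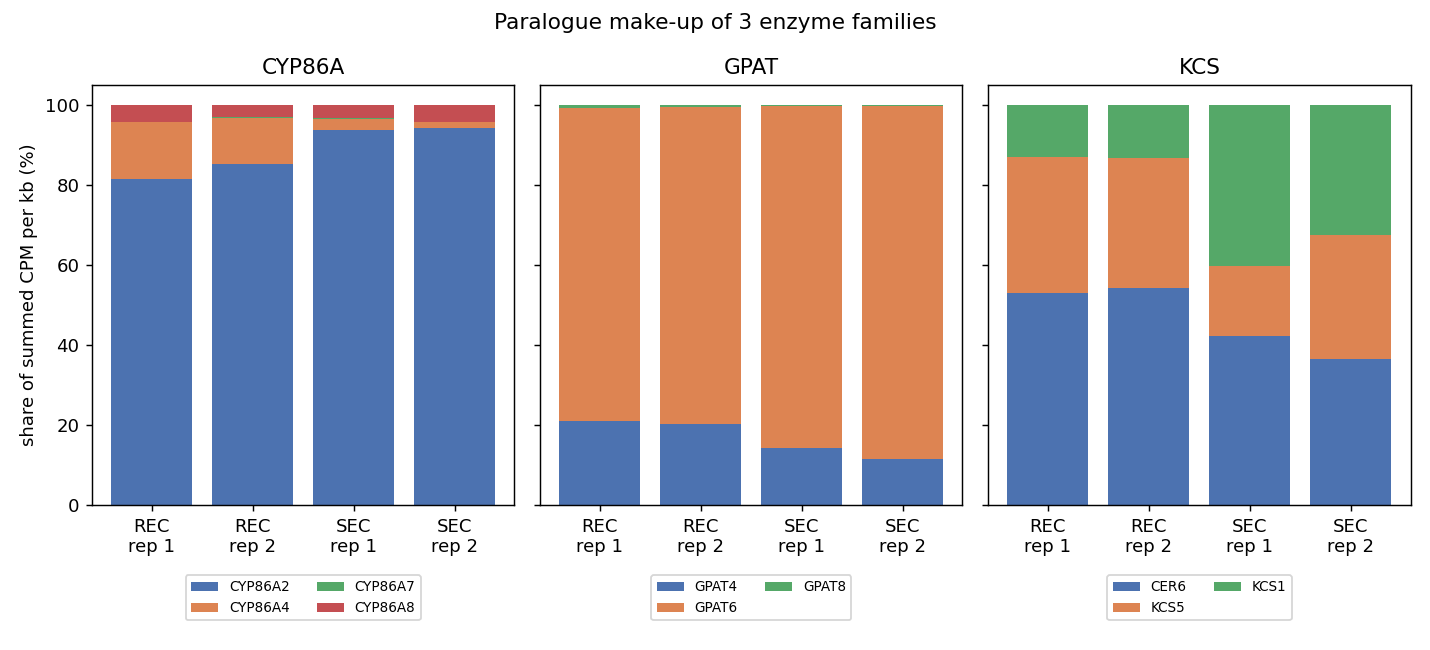
Share of each gene in the summed CPM per kb of its family, in percent, in the 2 REC libraries on the left of each panel and the 2 SEC libraries on the right, for the CYP86A, GPAT and KCS members. CYP86A4 takes 14.4% and 11.6% in RECs and 2.66% and 1.54% in SECs, and KCS1 takes 12.9% and 13.3% in RECs and 40.2% and 32.6% in SECs.

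The most abundant cutin gene per kb lay on the SEC side of 0. GPAT6 (AT2G38110), an acyltransferase of cutin known from petals and other floral organs, had 1075 and 1210.2 CPM in REC libraries and 1367 and 1604 CPM in SEC libraries. Both SEC libraries were above both REC libraries, with a log2 fold change of −0.38 (SE 0.16) that did not pass (edgeR adjusted p = 0.235). Per kb it stood within the top 0.67% of tested genes in RECs and the top 0.479% in SECs. Removal of the length trend moved it to −0.51, which passed (edgeR adjusted p = 0.0342).

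GPAT4 (AT1G01610) and GPAT8 (AT4G00400), acyltransferases with overlapping roles in cutin of leaves and stems, lay on the REC side of 0. GPAT8 had 10.9 and 8.34 CPM in REC libraries and 3.01 and 2.82 CPM in SEC libraries, with no overlap and a log2 fold change of 1.72 (SE 0.39, edgeR adjusted p = 0.081). GPAT4 had 251 and 267 CPM in REC libraries and 197 and 183 CPM in SEC libraries (a log2 fold change of 0.45, edgeR adjusted p = 0.202). GPAT6 held 78.1% and 79.2% of the summed CPM per kb of these 3 genes in RECs and 85.5% and 88.2% in SECs, and the family summed to 622 and 690.3 CPM per kb in RECs and to 722 and 822 CPM per kb in SECs. The synthetase genes LACS2 (AT1G49430) and LACS1 (AT2G47240), which activate fatty acids for cutin and for wax, had log2 fold changes of 0.93 and 0.14 (edgeR adjusted p = 0.114 and 0.795). LACS2 was at 57.8 and 61.1 CPM in REC libraries and 25.9 and 36.6 CPM in SEC libraries, and the groups of LACS1 overlapped.

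The in-chain hydroxylase genes were low. CYP77A6 (AT3G10570), needed with GPAT6 for petal cutin, had 5 and 14 counts in the REC libraries, against 0 and 8 in the SEC libraries and was not tested. CYP77A4 (AT5G04660) had 30 and 53 counts in the REC libraries, against 28 and 41 in the SEC libraries (a log2 fold change of 0.30, SE 0.57, edgeR adjusted p = 0.799). The whole transcript of CYP77A4 lies within AT5G04670 on the other strand, a gene with 122 and 220 counts in the REC libraries, against 257 and 199 in the SEC libraries. Without strand the reads of the pair cannot be told apart. Summed over the 11 members of this role, the level was 799 and 890 CPM per kb in RECs and 815 and 959 CPM per kb in SECs, so the groups overlapped, and GPAT6 made up most of each sum.

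Of the 6 proteins of cutin assembly and cuticle export, none passed the test by edgeR. At an unadjusted edgeR p under 0.05, 3 of them were higher in RECs and 0 in SECs, against 9.46% and 14.1% of all tested genes. DESeq2 called 1 of them, BDG1, higher in RECs, where it called 2.85% of the 23144 genes with a count. BDG1 (AT1G64670), an epidermal hydrolase-like protein needed for an intact cuticle, had 20.3 and 23.7 CPM in REC libraries and 7.26 and 7.13 CPM in SEC libraries. The groups were apart, with a log2 fold change of 1.61 (SE 0.28, edgeR adjusted p = 0.0544), and the adjusted p by DESeq2 was 0.00383. HTH (AT1G72970), an oxidoreductase in the synthesis of dicarboxylic acids of cutin, had 10.8 and 9.21 CPM in REC libraries and 2.55 and 5.14 CPM in SEC libraries (a log2 fold change of 1.38, SE 0.47, edgeR adjusted p = 0.16). DCR (AT5G23940, PEL3 in the reference), an acyltransferase required for cutin formation, was low throughout at 10 and 23 counts in the REC libraries, against 19 and 35 in the SEC libraries.

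Among the transporters, ABCG11 (AT1G17840), which exports both cutin and wax precursors, was the most abundant of its role per kb. It had 196 and 203 CPM in REC libraries and 124 and 164 CPM in SEC libraries (a log2 fold change of 0.47, SE 0.21, edgeR adjusted p = 0.265). It shares 18.6% of its transcript with AT1G17850 on the other strand, a gene with 357 and 431 counts in the REC libraries, against 250 and 326 in the SEC libraries. ABCG11 itself had 2498 and 3041 counts in the REC libraries, against 1605 and 2562 in the SEC libraries. ABCG12 (AT1G51500, CER5), its partner in wax export, had 155 and 160.1 CPM in REC libraries and 98.4 and 122 CPM in SEC libraries (a log2 fold change of 0.51, SE 0.20, edgeR adjusted p = 0.212). Both REC libraries were above both SEC libraries for this pair.

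ABCG32 (AT2G26910), an exporter of cutin precursors with the longest transcript of the members, 4956 nt, had 123 and 132 CPM in REC libraries and 32.0 and 138 CPM in SEC libraries. The SEC libraries thus lay on either side of the REC pair. Its log2 fold change was 0.59 (SE 0.64, edgeR adjusted p = 0.636), and it moved to −0.11 with SEC replicate 1 left out and to 2.00 with SEC replicate 2 left out. CER9 (AT4G34100), an E3 ubiquitin ligase that restrains cuticle lipid synthesis and has a transcript of 3934 nt, split in the same way. It had 199 and 201 CPM in REC libraries and 134 and 261 CPM in SEC libraries (a log2 fold change of 0.02, SE 0.34, edgeR adjusted p = 0.979), and with SEC replicate 1 left out it was −0.38 (edgeR adjusted p = 0.00509), while with SEC replicate 2 left out it was 0.60 (9.64e-05). CER7 (AT3G60500), an exosome subunit known for its action on CER3 transcript levels, had 25.8 and 22.6 CPM in REC libraries and 13.4 and 16.3 CPM in SEC libraries (a log2 fold change of 0.70, SE 0.27, edgeR adjusted p = 0.194). BDG1, CYP86A2, CER7 and CER10 overlap a counted gene on the other strand over at most 5.73% of their transcripts. CYP86A2, CER2 and ABCG11 also share 35.3%, 19.4% and 13.4% of their transcripts with opposite-strand genes that are not among the counted ones.

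**Figure D4:**
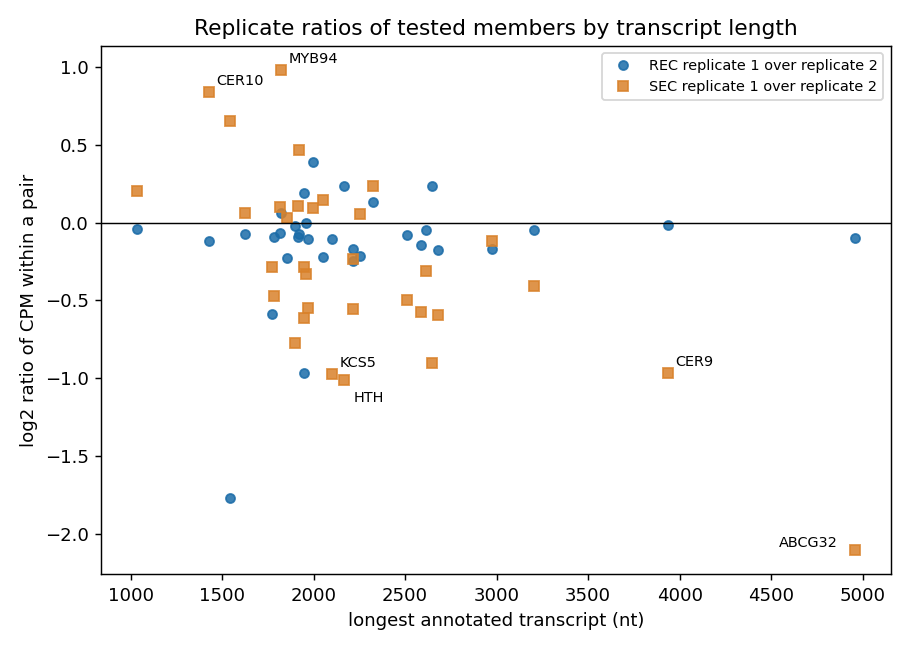
Log2 ratio of replicate 1 to replicate 2 within each pair of libraries against the length of the longest annotated transcript (nt), for the 33 tested members, with the REC pair as blue circles and the SEC pair as orange squares. ABCG32 (4956 nt) and CER9 (3934 nt) stand at −2.10 and −0.97 in the SEC pair and at −0.10 and −0.01 in the REC pair.

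Of the 8 transcription factors 4 were tested, and MYB96 (AT5G62470), an activator of wax genes known from drought responses, was the one that passed. Over all tested genes 0.495% were called higher in RECs. MYB96 had 414 and 442 CPM in REC libraries and 125 and 174 CPM in SEC libraries. The groups were well apart (a log2 fold change of 1.52, SE 0.22, edgeR adjusted p = 0.0407), but the call was lost without REC replicate 1 or REC replicate 2 (edgeR adjusted p = 0.162 and 0.129). MYB94 (AT3G47600), its close relative with a shared role in wax synthesis, overlapped between the groups, at 32.7 and 31.4 CPM in REC libraries and 34.0 and 17.3 CPM in SEC libraries (a log2 fold change of 0.32, SE 0.37, edgeR adjusted p = 0.656). MYB30 (AT3G28910), a regulator of very long chain fatty acid synthesis in defence, had 63.8 and 67.1 CPM in REC libraries and 46.2 and 33.4 CPM in SEC libraries (a log2 fold change of 0.72, SE 0.25, edgeR adjusted p = 0.171). Of the summed CPM per kb of the 5 MYB members, MYB96 held 81.9% and 82.4% in RECs and 61.7% and 78.0% in SECs.

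The SHN genes, MYB16 and MYB106, the known activators of cutin genes among the members, were near or at the detection limit. SHN1 (AT1G15360, WIN1), an ERF factor that induces cutin and wax genes, had 1 and 3 counts in the REC libraries, against 0 and 0 in the SEC libraries. SHN2 (AT5G11190) had 0 counts in every library and SHN3 (AT5G25390) had 4 counts, all in SEC replicate 2. MYB16 (AT5G15310), a MIXTA-like factor of petal and leaf epidermis, also had 0 counts in every library, which allows up to 0.0533 CPM over the 4 libraries. The related MYB106 (AT3G01140) had 3 and 12 counts in the REC libraries, against 17 and 13 in the SEC libraries, with a log2 fold change of −1.02 (SE 1.00, edgeR adjusted p = 0.594). MYB106 shares 79.7% of its transcript with AT3G01142 on the other strand, a gene with 6 and 17 counts in the REC libraries, against 21 and 10 in the SEC libraries, so its reads are uncertain. Thus 4 of the 8 factors could not be tested.

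Of a list of 32 other genes of the cuticle pathway, 27 were tested, and edgeR called 0 in either direction at an adjusted p under 0.05. At an unadjusted edgeR p under 0.05, 5 were higher in RECs and 1 was higher in SECs, against 9.46% and 14.1% of all tested genes. DESeq2 called 3 higher in RECs, where it called 2.85% of the 23144 genes with a count. The median log2 fold change was 0.27 over the 27 genes and 0.02 over all tested genes. Both REC libraries were above both SEC libraries in 14 of the 27, the reverse held in 7, and the groups overlapped in 6. Over all tested genes the first pattern held for 29.8% and the second for 28.2%. Of the tested genes, 6, chosen after their values were seen, had a log2 fold change beyond 1 in either direction and no overlap between the groups. The share of all tested genes that meet both of these rules was not computed. LTPG1 (AT1G27950), a surface-anchored lipid transfer protein of wax export, had 1032 and 967 CPM in REC libraries and 599 and 361 CPM in SEC libraries (a log2 fold change of 1.06, SE 0.27, edgeR adjusted p = 0.096). ADS4 (AT1G06350), a fatty acid desaturase gene, had 127 and 80 counts in the REC libraries, against 1 and 8 in the SEC libraries (a log2 fold change of 4.61, SE 0.89, edgeR adjusted p = 0.0634). AT1G02190, of the same protein family as CER1, had 178 and 201 CPM in REC libraries and 78.2 and 107 CPM in SEC libraries (a log2 fold change of 1.03, SE 0.24, edgeR adjusted p = 0.0823). KCS12 (AT2G28630) and KCR2 (AT1G24470), of the synthase and reductase families, were low, with 72 and 76 counts and 20 and 22 counts in RECs, and 0 and 21 counts and 3 and 14 counts in SECs. DEWAX (AT5G61590), an ERF factor that represses wax genes, lay on the SEC side, with 3.22 and 3.14 CPM in REC libraries and 16.1 and 5.20 CPM in SEC libraries (a log2 fold change of −1.74, SE 0.62, edgeR adjusted p = 0.174).

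Markers of cell types were read beside these results. Of 5 abscission zone genes, HAE, a receptor kinase of floral abscission, had 440 and 459 CPM in REC libraries and 160 and 355 CPM in SEC libraries, and none was at 0 in any library. ADPG2, a polygalacturonase of cell separation, and IDA, a peptide ligand of HAE, were higher in SECs, with log2 fold changes of −2.83 and −5.08 (edgeR adjusted p = 0.0267 and 0.0341). The other 3 did not pass, and 2.18% of all tested genes were called higher in SECs. IDA was low in RECs, at 6 and 13 counts, against 421 and 217 counts in the SEC libraries. The 6 epidermal markers summed to 1188 and 1098 CPM in RECs and to 1564 and 1051 CPM in SECs, and LTP1 made up most of each sum. None of them was at 0 in any library, but HDG2 and ACR4 were low. HDG2 had 11 and 29 counts in the REC libraries, against 23 and 41 in the SEC libraries. ACR4 had 28 and 21 counts in the REC libraries, against 38 and 16 in the SEC libraries. PDF2, a homeodomain gene of the epidermis, was the one that passed, with 9.89 and 7.87 CPM in RECs and the higher values of 30.2 and 31.5 CPM in SECs (a log2 fold change of −1.80, SE 0.27, edgeR adjusted p = 0.0431), a call that did not hold with either REC library left out. FDH (AT2G26250, KCS10), a ketoacyl-CoA synthase of the epidermis, had 101 and 107 CPM in REC libraries and 57.1 and 96.1 CPM in SEC libraries (a log2 fold change of 0.44, edgeR adjusted p = 0.433), and ATML1 had 3.61 and 4.67 CPM in REC libraries and 0.772 and 5.97 CPM in SEC libraries.

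The 7 markers of photosynthetic ground tissue summed to 4140.2 and 3136 CPM in RECs and to 2824 and 2195 CPM in SECs. Of these, 3 were called higher in RECs, where 0.495% of all tested genes were, and the other 4 did not pass. RBCS2B and CA1 had log2 fold changes of 5.17 and 3.53 (edgeR adjusted p = 0.0267 and 0.0341), and CAB3 had 3.11 (edgeR adjusted p = 0.0301). The RBCS and CAB genes are multigene families whose reads may be split among copies. Both REC libraries were above both SEC libraries in 6 of the 7 markers, a pattern of 29.8% of all tested genes. The groups overlapped for RBCS1A, the most abundant of the list, at 1679 and 1339.8 CPM in REC libraries and 1845 and 1212 CPM in SEC libraries. Markers of guard cells (4), phloem (2), xylem (3) and pollen or tapetum (2) each summed to at most 9.34 CPM in any library, the value of the phloem pair in REC replicate 2, with FAMA, HT1 and APL at 0 in all of them. KAT1, a channel gene of guard cells, had 10 and 40 counts in the REC libraries, against 0 and 0 in the SEC libraries, and SUC2, a sucrose carrier gene of phloem, had 118 and 140 counts in the REC libraries, against 43 and 8 in the SEC libraries. The part of cell composition in the cuticle results was not tested, and in sorted bulk samples fewer cells of a type and less RNA per cell cannot be told apart.

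The summed levels of wax enzymes and cutin members were set beside each other. The 12 wax enzymes summed to 1584 and 1713 CPM per kb in RECs and to 688 and 834 CPM per kb in SECs, with both REC libraries above both SEC libraries. The 17 cutin members summed to 960.4 and 1059 CPM per kb in RECs and to 904 and 1092 CPM per kb in SECs, which overlap. GPAT6 alone held 486 and 547 CPM per kb of this in RECs and 617 and 725 CPM per kb in SECs. Without it, the other 16 cutin members summed to 475 and 512 CPM per kb in RECs and to 287 and 368 CPM per kb in SECs. Both REC libraries were then above both SEC libraries, so that the overlap rests on GPAT6. GPAT6 was set aside with its values known, as the most abundant cutin member and one on the SEC side, so this split is a description only. Of the 15 tested cutin members, 10 had both REC libraries above both SEC libraries and 1, GPAT6, had the reverse. Over all tested genes these patterns held for 29.8% and 28.2%. The median log2 fold change was 0.91 over 12 tested wax enzymes and 0.59 over the 15 tested cutin members. The difference between the groups of genes was not tested.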

How the data were processed

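RNA was measured in 4 libraries of sorted protoplasts, 2 of RECs and 2 of SECs. Per the labels' protocols, cDNA was made with SMART-Seq v4 (18 cycles) and libraries with TruSeq v2, which does not mark strand. Without molecular identifiers, detection limits (3 counts) cover counting error only. Whether replicates are separate plants is not in the labels, so p-values reflect only how these samples vary, and that may be technical variation.

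Each deposited file gives whole-number read counts by gene. The submitters' processing notes name build TAIR10 and these tools, given here by name: bcl2fastq 1.8.4, DESeq2, FastQC 0.11.2, HTSeq 0.6.1, Picard 1.119, TopHat2 2.0.9 and Trimmomatic 0.32.3. The annotation and strand setting of the counting are not stated in the sources used here. The promoter in the genotype labels has another number in every sample; QRT2 was taken from the series text. The 5 summary lines per file stayed out of the tests; records in no gene made up 46.8% and 46.8% of records in RECs and 47.7% and 47.3% in SECs, and records with several alignments 7.48% and 7.03% in RECs and 5.64% and 5.74% in SECs.

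Differences were fitted in R 4.3.3 by edgeR 4.0.16 (quasi-likelihood F test, TMM, filterByExpr, Benjamini-Hochberg over 18384 genes, two-sided), with group as the one term. The SE is the size of the fold change (log2) over the square root of its F. CPM uses TMM-scaled library sizes, and CPM per kb divides by the longest RefSeq transcript. Alternatives were RLE and upper-quartile factors, no filter, DESeq2 1.42.0, limma voom 3.58.1, removal of a loess trend on transcript length, each library left out, and the replicate number as a block. The steps were also run on simulated counts with the same dispersion in both groups and no effect of transcript length. That run does not cover the unequal spread of the REC and SEC pairs or the length pattern of the SEC pair. Within pairs, chi-square per degree of freedom was 5.39 for RECs and 70.8 for SECs, so no library was a repeat of another.

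Full statistics were given to members with an adjusted p under 0.05, to those with a log2 fold change of at least 1 in size and no overlap, and to the most abundant member of each role per kb. Members and lists were chosen with earlier results of these data known.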

Additional observations from a re-analysis of the deposited data

How the results depend on the processing

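The 5 members called higher in RECs were the same 5 genes with RLE factors and with upper-quartile factors. Each of them stayed called among 8 without a filter, 10 by DESeq2 and 11 with the transcript length trend removed. Those fits called 1.21%, 2.85% and 4.87% of all genes higher in RECs. The 5 also stayed called among 6 by limma voom, which called 91 of 18384 genes higher in RECs. With the replicate block they were among 9, where 2.86% of all genes were called higher in RECs. GPAT6 was the 1 member called higher in SECs with the length trend removed. With a library left out, members called higher in RECs ranged from 2 to 25 and members called higher in SECs from 0 to 3; MAH1 and CYP86A4 were called in all 4 of these fits. The median log2 fold change of the tested members was 0.75 with upper-quartile factors, where that of all tested genes was 0.12, and ranged from 0.57 to 0.70 with a library left out. Over all genes, calls higher in RECs and in SECs were 280 and 836 without a filter, 659 and 1434 by DESeq2, 896 and 1648 with the length trend removed, 87 and 254 with upper-quartile factors, and 28 to 5630 and 86 to 4991 with a library left out. Other cuticle genes called higher in RECs numbered 2 without a filter, 3 by DESeq2, 3 with the length trend removed and 3 with the replicate block. In these settings 1.21%, 2.85%, 4.87% and 2.86% of all genes were called higher in RECs. With the length trend removed, 1 other cuticle gene was called higher in SECs, where 8.96% of all genes were. Leaving out a library leaves the other pair to set the spread, so these fits differ in that too.

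Log2 fold changes turned in sign for 5 members. LACS1 was at −0.061 and CER9 at −0.26 with the length trend removed. With a library left out, LACS1 ranged from −0.12 to 0.48, CER9 from −0.38 to 0.60, ABCG32 from −0.11 to 2.00, MYB94 from −0.077 to 0.89 and CYP77A4 from −0.015 to 0.59. The call for PDF2 was lost with upper-quartile factors (adjusted p = 0.0524 by edgeR) and without either REC library (0.3 and 0.399). The cause of these changes was not tested.

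The replicate numbers are not stated to pair libraries, and deviations of same-numbered libraries correlated at 0.0384 over genes. With the replicate block the calls over all genes were 526 higher in RECs (2.86%) and 1161 higher in SECs (6.32%). Depth limits the SHN genes, MYB16, MYB106, CYP77A6 and CYP86A7, whose counts were 17 or fewer in each library.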
